A study of Homo sapiens with 4 samples.

Results

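The Notch pathway was followed through 10 genes in KGN cells, a human line grown from an ovarian granulosa cell tumour: the receptors NOTCH1, NOTCH2 and NOTCH3, the ligands JAG1, JAG2 and DLL1, and the transcription factors HES1, HEY1, HEY2 and HEYL. The members were all probe sets annotated to 1 of these symbols alone, which gave 27 of 41097 single-symbol probe sets and 10 of 19775 genes. The study hybridised 4 Affymetrix arrays, 1 for each combination of siRNA and cyclic AMP treatment: siYT+8Br-cAMP, siYT, siNC+8Br-cAMP and siNC. All groups were KGN cells transfected with siRNA, either a pair against YAP and TAZ (5 nM of each, siYT) or a control siRNA (10 nM, siNC), and after 48 h the medium was replaced. The cyclic AMP analogue 8Br-cAMP, at 0.5 mM for 24 h, was in the new medium of siYT+8Br-cAMP and siNC+8Br-cAMP cells, while siYT and siNC cells got none. KGN is a single tumour-derived line, and each group is 1 array, so no difference below has a replicate check and they are given as sizes. The p-values of an additive fit, tried as an alternative, stand in the closing section.

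Notch receptors sit in the cell surface and bind ligands of the Jagged and Delta families on the neighbouring cell. Ligand binding lets proteases release the intracellular part of the receptor, which moves to the nucleus, joins the DNA-binding protein RBPJ and switches on target genes. The best known of these are the HES and HEY genes, which encode basic helix-loop-helix repressors and, in the case of HES1, repress their own promoter through N box sites. In the mouse ovary, JAG1 on the oocyte signals to NOTCH2 on granulosa cells during follicle assembly and growth.

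Promoter sequence is shown for HES1 and JAG1 and for the HES/HEY genes that hold an RBPJ motif. HES1 and JAG1 had the widest range over the arrays by the probe set that stands for each gene. The sequences are from RefSeq (GRCh38.p14), in which 8 of the 10 members had an entry (HEY1 and DLL1 did not), and each runs 5′ to 3′ on the gene's strand and ends at or before the base just upstream of the start site. Capitals mark matches on either strand to GTGGGAA (RBPJ), CACNAG (N box), TGACG (a cyclic AMP response element half-site) and GGAATG (TEAD, the DNA-binding partner of YAP and TAZ). For HEY2 and HEYL a short stretch around the RBPJ match is shown, with capitals for that match alone. None of the matches overlapped.
HES1, chr3:194135898-194136147, plus strand: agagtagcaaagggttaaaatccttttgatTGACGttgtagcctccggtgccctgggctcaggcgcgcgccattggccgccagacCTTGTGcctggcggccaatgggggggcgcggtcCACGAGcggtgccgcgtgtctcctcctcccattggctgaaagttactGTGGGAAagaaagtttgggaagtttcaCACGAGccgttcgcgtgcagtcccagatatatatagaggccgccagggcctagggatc
JAG1, chr20:10674000-10674249, minus strand: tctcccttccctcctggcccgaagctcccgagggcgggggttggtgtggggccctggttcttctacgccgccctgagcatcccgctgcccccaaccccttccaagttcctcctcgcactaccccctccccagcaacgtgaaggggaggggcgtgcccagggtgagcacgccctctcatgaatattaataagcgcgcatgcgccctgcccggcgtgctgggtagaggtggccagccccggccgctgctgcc
HEY2, chr6:125749404-125749440, plus strand: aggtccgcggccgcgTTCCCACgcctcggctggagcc
HEYL, chr1:39639800-39639836, minus strand: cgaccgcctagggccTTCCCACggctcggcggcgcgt

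The RBPJ letters lay in the 250 bases upstream of HES1, HEY2 and HEYL and of no receptor or ligand with an entry, which is 3 of 8 members, while 5.43% of 35116 promoters of that length hold them. In HES1 the RBPJ match began 85 bases upstream of the start, N box matches began 165, 132 and 58 bases upstream, and a TGACG match began 220 bases upstream. TGACG also matched 159 bases upstream of HEYL, across the end of the stretch printed, and 24 bases upstream of JAG2. The N box letters also matched 211 bases upstream of NOTCH3. The N box letters occur in 32.0% of promoters and TGACG in 21.2%, so these matches are common. GGAATG (11.9% of promoters) was found in 0 of the 8. The JAG1 window held none of the 4 motifs. A match describes letters in this window, and binding was not measured.

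Values are linear probe set intensities as deposited, and log2 differences were taken after raising every value below 62.6, the median of the whole table, to that floor. The median intensity was 56.9 to 66.3 on the 4 arrays and 48.7% to 51.7% of values lay below the floor. YAP1 and WWTR1 (the gene of TAZ) were lower after knockdown, by 3.80-fold and 5.22-fold without and 3.38-fold and 6.11-fold with 8Br-cAMP. Of 11 measured granulosa markers 8 were above the floor on every array, while FSHR, NR5A1 and AMHR2 were below it on every array. The epithelial markers EPCAM and CDH1 were also below it on every array, as were CYP17A1 and LHCGR (theca) and CDH5 and VWF (endothelial). INSL3 and PTCH1 (theca) and PECAM1 (endothelial) were above it on every array. The endothelial marker TEK was above the floor in siNC cells alone (131). Of 3 measured leukocyte markers, CD14 read 130 and 94.3 in siNC+8Br-cAMP and siNC cells and was below the floor on both siYT arrays. PTPRC was above the floor in siYT+8Br-cAMP cells alone (80.0) and CD3E in siYT cells alone (63.6). Granulosa markers differed between groups to unequal extents. Knockdown differences without and with 8Br-cAMP were 0.14 and 0.26 (log2) for FOXL2 and 0.16 and -0.15 for GATA4. INHBA had -1.75 and 0.10. KRT18 read 10131 and 10099 on the siYT+8Br-cAMP and siYT arrays, against 69798 and 48635 on the siNC+8Br-cAMP and siNC arrays. CYP19A1 read 24784 and 7213 on the siYT+8Br-cAMP and siYT arrays, against 6558 and 184 on the siNC+8Br-cAMP and siNC arrays, and STAR was 27.2-fold higher with 8Br-cAMP after knockdown and 29.0-fold higher with control siRNA. The summed intensity of 3 fibroblast markers (LUM, DCN and PDGFRA), all above the floor, was 5262 and 7916 on the siYT+8Br-cAMP and siYT arrays, against 1262 and 995 on the siNC+8Br-cAMP and siNC arrays. LUM and DCN were higher on both knockdown arrays, as HES1 and HEY1 were, while PDGFRA read 687 against 548 with 8Br-cAMP and 3493 against 553 without it. The part of these markers in the differences below was not tested, and in bulk RNA a change in the share of cells of a type cannot be told apart from a change in RNA per cell. The siYT+8Br-cAMP array stood apart in the ratio of 3′ to 5′ signal of ACTB, which was 1.35 there and 1.07 to 1.14 on the other arrays, and differences that use that array are therefore set beside the matching comparison without it. The spread between probe sets of 1 gene, over 7501 probe sets of 3019 genes, had an SD of 0.39 (log2) for siYT minus siNC and 0.37 for siNC+8Br-cAMP minus siNC, and 0.54 and 0.53 for the differences that use the siYT+8Br-cAMP array. This SD stands in for measurement error and leaves out variation between cultures. It was taken only from probe sets above 4 times the floor on all 4 arrays. Member probe sets that read lower on any array, those of HES1 and NOTCH3 among them, lie outside that set, and their own error may be larger.

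Of the 27 probe sets, 15 were above the floor on all 4 arrays, 6 on some and 6 on none. Each gene was represented by its probe set with the highest mean log2 intensity. By these, 7 members were measured on every array, DLL1 and HEY2 on some, and HEYL on none, so 9 members entered the comparison with 14427 genes. Intensities of different probe sets are not comparable as levels of different genes, so each member is compared with itself across arrays. The plot of intensities by array shows every probe set.

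**Figure D1:**
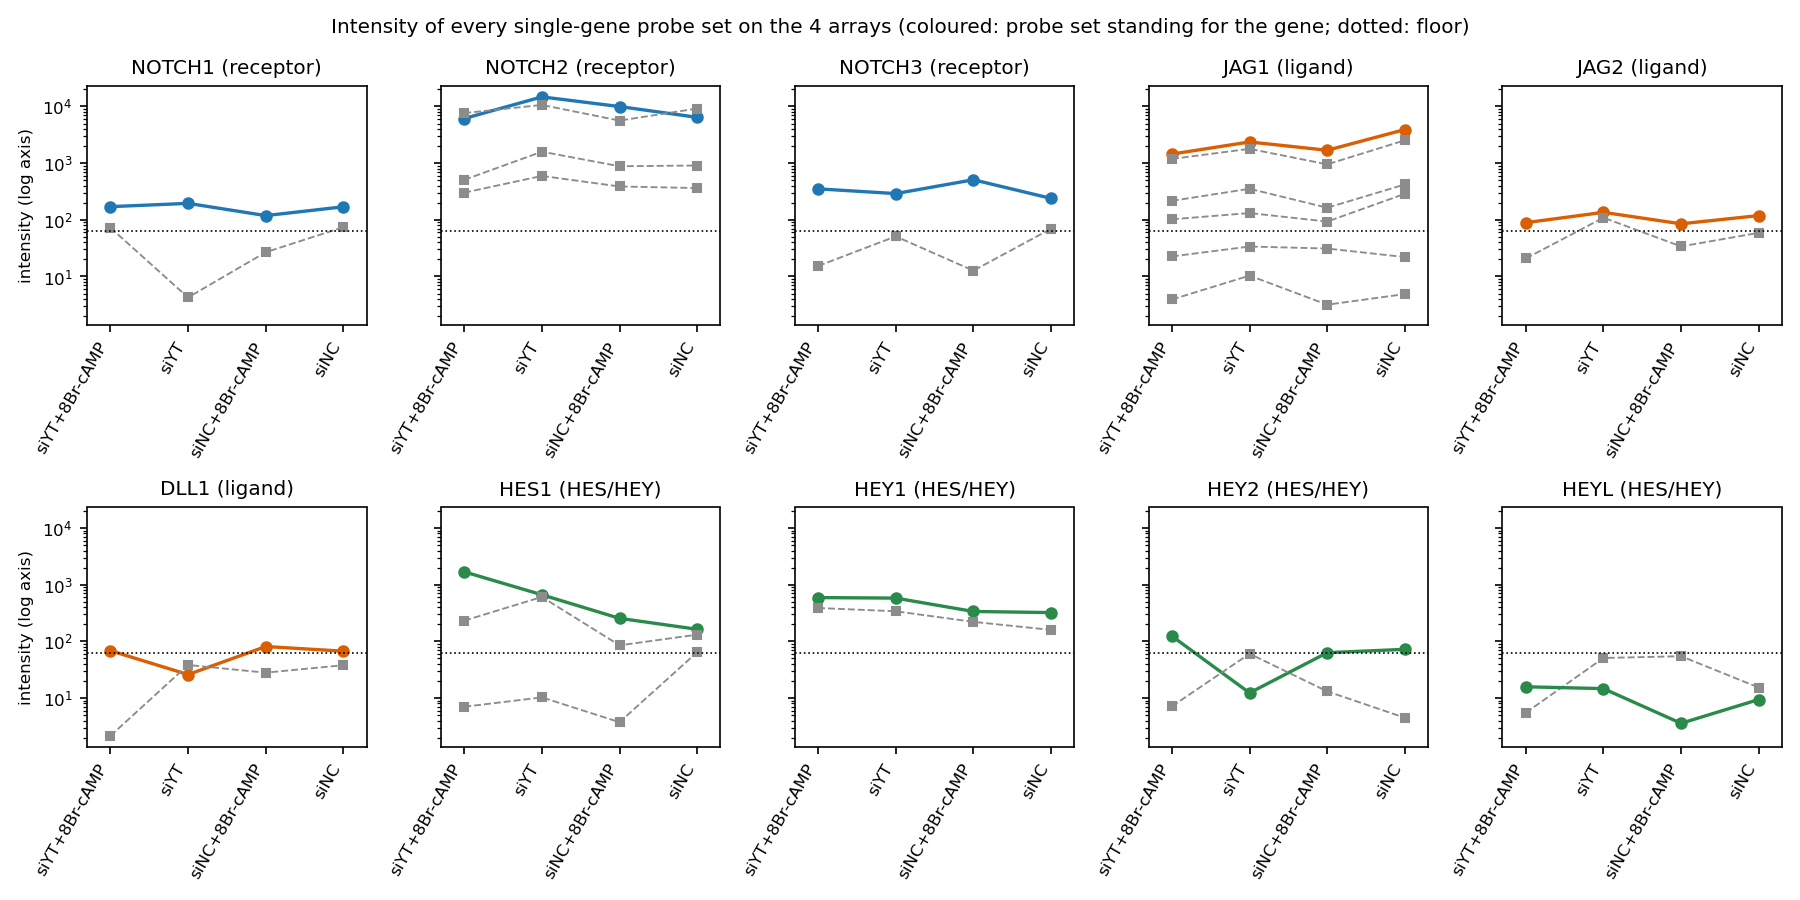
Intensity (linear units on a log axis) of all 27 member probe sets on the arrays siYT+8Br-cAMP, siYT, siNC+8Br-cAMP and siNC, 1 panel a gene; the coloured line is the probe set that stands for the gene, grey lines are its other probe sets and the dotted line is the floor of 62.6. HES1 spans 163 to 1681 with its highest values on the siYT arrays, JAG1 is highest in siNC for the 4 probe sets above the floor, and HEYL stays below the floor.

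Among the receptors, NOTCH2 was measured by 4 probe sets and NOTCH1 and NOTCH3 by 1 each on all arrays. NOTCH2, the receptor best described on granulosa cells, read 14753 in siYT cells against 6429 in siNC cells and 6122 in siYT+8Br-cAMP cells against 9955 in siNC+8Br-cAMP cells by its representative probe set (202443_x_at). The siYT array was thus the highest and the siYT+8Br-cAMP array the lowest. The knockdown difference was 1.20 (log2) without and -0.70 with 8Br-cAMP, and the 8Br-cAMP difference was -1.27 after knockdown and 0.63 with control siRNA.

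The other NOTCH2 probe sets did not all repeat this pattern. Probe set 210756_s_at read 507 and 1592 in siYT+8Br-cAMP and siYT cells, against 881 and 908 in siNC+8Br-cAMP and siNC cells. Probe set 202445_s_at read 301 and 594 in siYT+8Br-cAMP and siYT cells, against 387 and 363 in siNC+8Br-cAMP and siNC cells. In these the siYT array was again highest and the siYT+8Br-cAMP array lowest. Probe set 212377_s_at read 7638 and 10627 in siYT+8Br-cAMP and siYT cells, against 5629 and 9193 in siNC+8Br-cAMP and siNC cells, with knockdown differences of 0.21 and 0.44 without and with 8Br-cAMP. All 4 probe sets had the same sign for knockdown without 8Br-cAMP (0.21 to 1.20) and for 8Br-cAMP after knockdown (-1.65 to -0.48), while 1 was higher and 3 were lower for knockdown with 8Br-cAMP (-0.80 to 0.44) and 2 were higher and 2 lower for 8Br-cAMP with control siRNA (-0.71 to 0.63). The NOTCH2NL genes are partial copies of NOTCH2, and a suffix of x marks probes that may bind other transcripts, so what these probe sets read of NOTCH2 alone is uncertain. A further probe set (227067_x_at), annotated to NOTCH2 together with NOTCH2NL genes and so no member by the rule, went the other way in the comparisons where the 4 shared a sign, with -0.80 in siYT minus siNC and 0.41 in siYT+8Br-cAMP minus siYT. The part of the 3′ to 5′ ratio of the siYT+8Br-cAMP array in the NOTCH2 values was not tested.

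NOTCH3, a receptor best known from vascular smooth muscle, read 352 in siYT+8Br-cAMP cells, 290 in siYT cells, 509 in siNC+8Br-cAMP cells and 239 in siNC cells. It was 2.13-fold higher with 8Br-cAMP under control siRNA (log2 1.09) and 1.21-fold higher after knockdown (0.28). Its knockdown differences were 0.28 without and -0.53 with 8Br-cAMP, both within the SD between probe sets. Its second probe set was above the floor in siNC alone, at 69.6.

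NOTCH1, the receptor first tied to human leukaemia, varied least of the receptors by the representative probe sets. It read 170 in siYT+8Br-cAMP cells, 195 in siYT cells, 119 in siNC+8Br-cAMP cells and 170 in siNC cells. Its highest and lowest arrays differed by 1.64-fold, and its 4 differences lay between -0.52 and 0.52. A second NOTCH1 probe set (223508_at) was above the floor in siYT+8Br-cAMP (72.6) and siNC cells (74.0) alone. By that one NOTCH1 was at least 1.18-fold lower after knockdown without 8Br-cAMP, where the representative differed by 0.20.

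Among the ligands, JAG1 was lower with 8Br-cAMP by every probe set that measured it. By the representative probe set (209099_x_at) it read 1444 in siYT+8Br-cAMP cells against 2364 in siYT cells, and 1686 in siNC+8Br-cAMP cells against 3915 in siNC cells. The siNC array was the highest and both 8Br-cAMP arrays were below both others, an order whose share among all genes was not counted. JAG1 was 2.32-fold lower with 8Br-cAMP under control siRNA (log2 -1.22) and 1.64-fold lower after knockdown (-0.71). Over the 4 JAG1 probe sets above the floor on all arrays, the 8Br-cAMP difference was -1.63 to -1.22 under control siRNA, more than 3 times the SD between probe sets. After knockdown it was -0.71 to -0.37, near that SD. The SD comes from brighter probe sets than 231183_s_at and 209098_s_at, which read 163 and 93.0 in siNC+8Br-cAMP cells. A further 2 JAG1 probe sets were below the floor on every array.

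JAG1 was also lower after knockdown without 8Br-cAMP, by -0.73 for the representative probe set and by -1.13 to -0.25 over the 4. With 8Br-cAMP the knockdown difference was small and of mixed sign, at -0.22 for the representative and up to 0.40, with 3 probe sets higher and 1 lower. Probe set 209098_s_at had the largest knockdown difference, 102 and 132 in siYT+8Br-cAMP and siYT cells, against 93.0 and 288 in siNC+8Br-cAMP and siNC cells. In each of these 4 JAG1 probe sets the siNC array was the highest and the siYT array came next.

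JAG2, the second Jagged ligand, was measured near the floor. It read 89.0 in siYT+8Br-cAMP cells against 135 in siYT cells, and 85.0 in siNC+8Br-cAMP cells against 119 in siNC cells. These are 1.52-fold and 1.40-fold lower with 8Br-cAMP, and the knockdown differences were 0.19 without and 0.07 with it. A second JAG2 probe set (209784_s_at) was above the floor in siYT cells alone (109). There it was at least 1.74-fold higher than in siNC or siYT+8Br-cAMP cells. DLL1, the Delta ligand, read 68.4 in siYT+8Br-cAMP, 80.9 in siNC+8Br-cAMP and 67.0 in siNC cells and was below the floor in siYT cells. Where both arrays measured it, DLL1 differed by -0.24 in siYT+8Br-cAMP minus siNC+8Br-cAMP and by 0.27 in siNC+8Br-cAMP minus siNC. The differences that use siYT are bounds: DLL1 was at least 1.07-fold lower after knockdown without 8Br-cAMP, and at least 1.09-fold higher with 8Br-cAMP after knockdown.

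Among the HES/HEY factors, HES1 had the largest knockdown differences of the 9 measured members, both without and with 8Br-cAMP. HES1 is the repressor through which Notch holds back differentiation in many tissues, and it also answers to other signals. The representative probe set (203394_s_at) read 1681 in siYT+8Br-cAMP cells, 662 in siYT cells, 254 in siNC+8Br-cAMP cells and 163 in siNC cells. Both knockdown arrays were above both control arrays, and the highest array was 10.3-fold above the lowest. How many of all genes order the arrays in this way was not counted. After knockdown the HES1 reading was 4.06-fold higher in the absence (log2 2.02) and 6.61-fold higher in the presence of 8Br-cAMP (2.73), against SDs between probe sets of 0.39 and 0.54.

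A second HES1 probe set (203395_s_at) gave knockdown differences in the same direction and 8Br-cAMP differences in the opposite one. It read 231 in siYT+8Br-cAMP cells, 607 in siYT cells, 84.9 in siNC+8Br-cAMP cells and 131 in siNC cells. Here too both knockdown arrays were above both control arrays, with differences of 2.21 without and 1.45 with 8Br-cAMP. With 8Br-cAMP, however, this probe set was lower after knockdown (-1.39) and with control siRNA (-0.63), where the representative was higher (1.34 and 0.64). The direction of the 8Br-cAMP difference of HES1 therefore depended on the probe set, and that of knockdown did not. The remaining HES1 probe set (203393_at) read 64.3 in siNC cells and was below the floor on the other arrays. The HES1 promoter printed above holds the RBPJ, N box and TGACG letters and no TEAD letters.

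HEY1, a HES-related repressor induced by Notch in many cell types, was higher after knockdown by both of its probe sets. The representative (44783_s_at) read 591 in siYT+8Br-cAMP cells and 578 in siYT cells, against 336 in siNC+8Br-cAMP cells and 321 in siNC cells. The other (218839_at) read 387 in siYT+8Br-cAMP cells and 339 in siYT cells, against 220 in siNC+8Br-cAMP cells and 159 in siNC cells. In both, each knockdown array read above each control array, an order whose share among all genes was not counted. By the representative, HEY1 was 1.80-fold higher after knockdown in the absence and 1.76-fold in the presence of 8Br-cAMP (log2 0.85 and 0.81), and by the other 2.13-fold and 1.76-fold higher (1.09 and 0.81). The 8Br-cAMP differences of the representative were 0.03 after knockdown and 0.07 with control siRNA, and those of the other 0.19 and 0.47.

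HEY2, a cardiac and vascular HEY factor, stayed near the floor. It read 123 in siYT+8Br-cAMP cells, 63.0 in siNC+8Br-cAMP cells and 72.2 in siNC cells, and was below the floor in siYT cells. It was 1.96-fold higher after knockdown with 8Br-cAMP and at least 1.15-fold lower without it. With 8Br-cAMP it was at least 1.97-fold higher after knockdown and 1.15-fold lower under control siRNA. HEYL, the remaining HEY factor, was below the floor on all arrays by both probe sets and gives no difference.

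**Figure D2:**
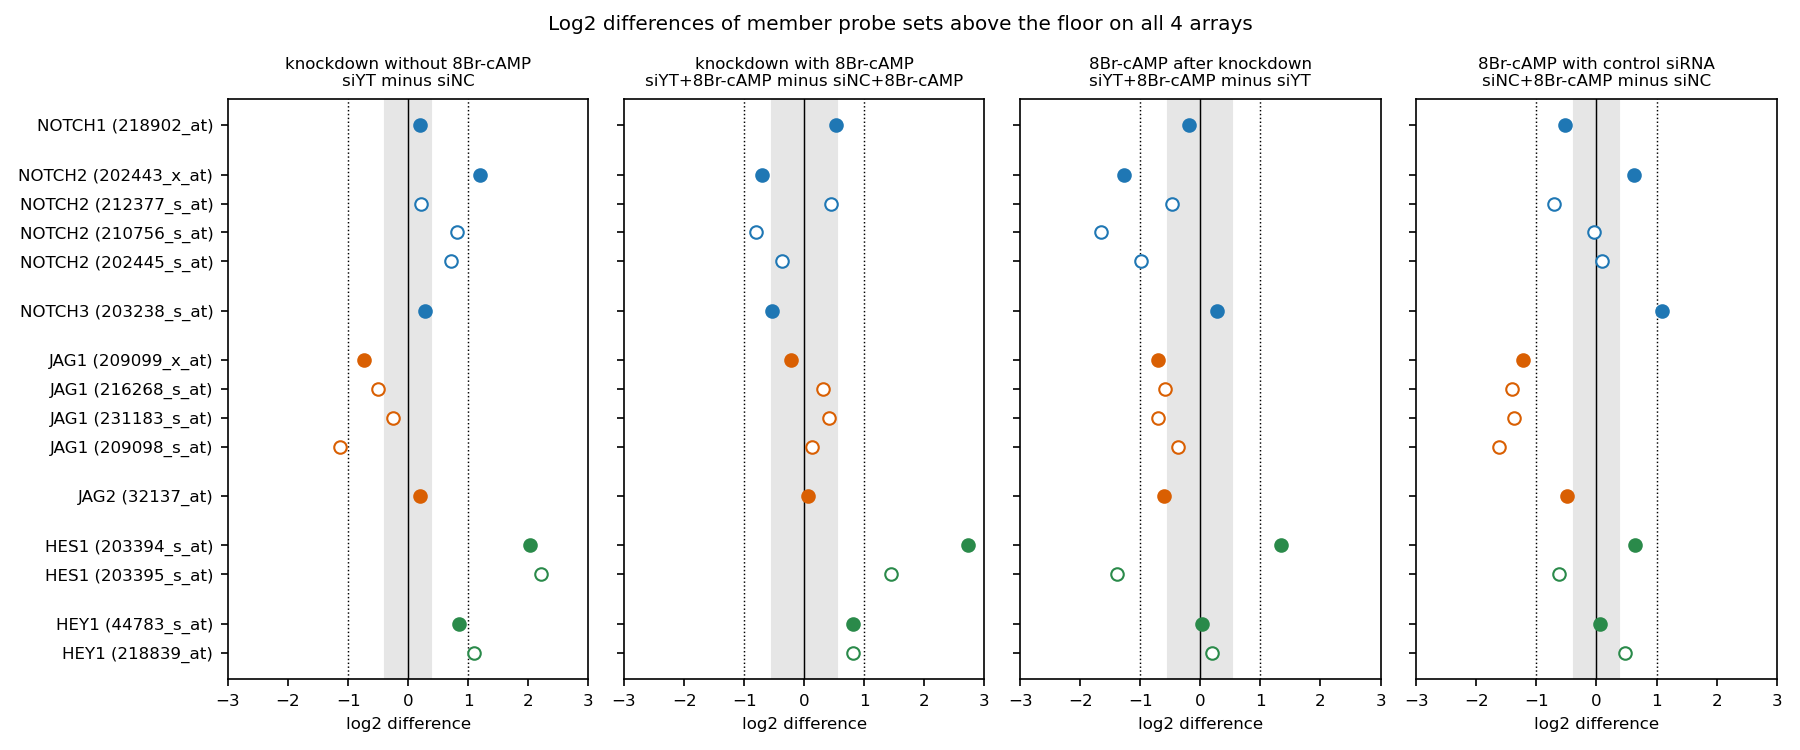
Log2 differences (x axis) of the 15 member probe sets above the floor on all 4 arrays, 1 panel for each comparison; filled points are the probe sets that stand for a gene, open points its others, the grey band is 1 SD between probe sets of a gene and dotted lines mark 2-fold. Both HES1 probe sets lie above 1 for knockdown and on opposite sides of 0 for 8Br-cAMP, the 4 JAG1 probe sets lie below -1 for 8Br-cAMP with control siRNA, and those of NOTCH2 are scattered.

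The knockdown comparisons gave the transcripts that differed between cells transfected against YAP and TAZ and control cells. Without 8Br-cAMP, 2 of the 9 measured members were at least 2-fold higher in siYT than in siNC cells, NOTCH2 and HES1, and 0 were at least 2-fold lower. Among all 14427 genes compared, 7.30% were higher and 6.05% lower by this rule. With 8Br-cAMP, 1 member was at least 2-fold higher after knockdown, HES1, and 0 were lower, where 6.74% of genes were higher and 9.48% lower. With 9 members, counts of 2 and 1 lie close to these shares. The median difference of the members was 0.20 without and 0.07 with 8Br-cAMP, against 0.00 over all genes in each. HES1 was the only member at least 2-fold higher in both of these comparisons, which share no array. The share of all genes called in both was not counted. By the mean of the 2 knockdown differences, HEY1 (0.83) came next after HES1 (2.37) among the members measured on all arrays. NOTCH2 reached 2-fold by 1 of its 4 probe sets.

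The 8Br-cAMP comparisons asked how cyclic AMP changes the cells. After knockdown, 1 member was at least 2-fold higher (HES1, by its representative probe set) and 1 lower (NOTCH2), where 5.00% of genes were higher and 9.88% lower. With control siRNA, 1 member was at least 2-fold higher (NOTCH3) and 1 lower (JAG1), where 4.34% of genes were higher and 5.22% lower. These counts too are near the share of all genes. The median of the members was 0.03 after knockdown and 0.07 with control siRNA, against 0.00 over all genes in each. The JAG1 call was shared by its 4 measured probe sets, while NOTCH3 rested on 1 and HES1 went the other way by its second.

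**Figure D3:**
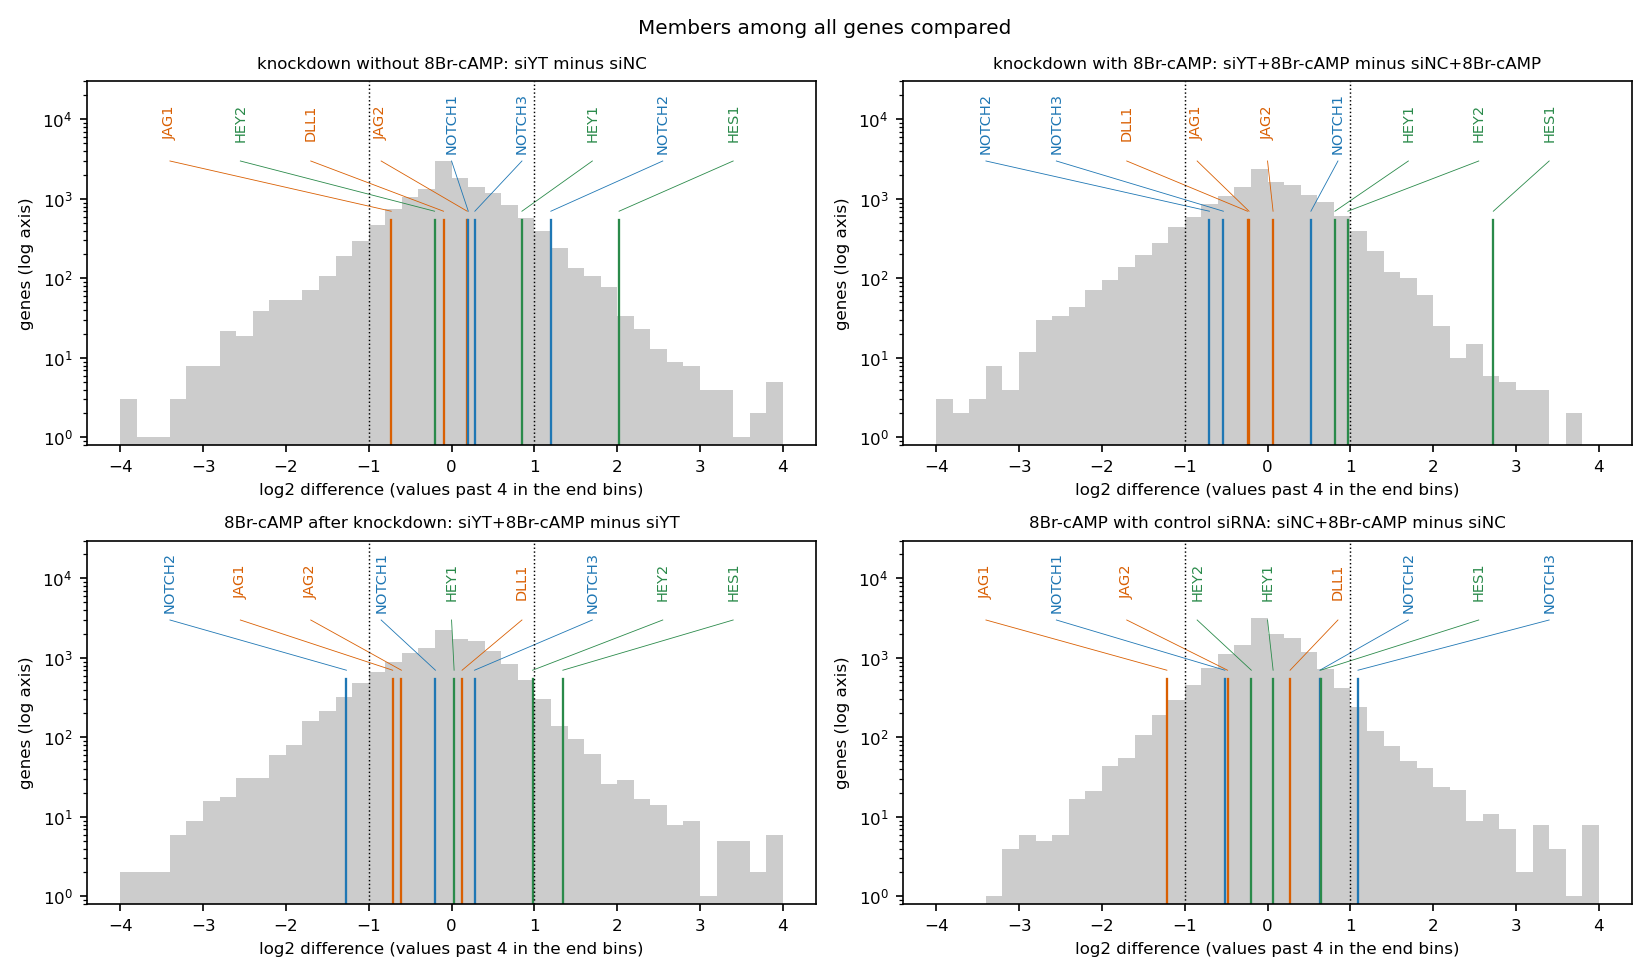
Histograms of the log2 differences of 14427 genes (count on a log axis) in each comparison, with the 9 measured members as coloured lines (blue receptors, orange ligands, green HES/HEY factors) and dotted lines at 2-fold. HES1 lies in the upper tail of both knockdown panels at 2.02 and 2.73, JAG1 is the lowest member for 8Br-cAMP with control siRNA at -1.22, and most other members lie within 2-fold.

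The difference of differences, knockdown with 8Br-cAMP minus knockdown without, was at least 1 in size for 2 members. NOTCH2 had -1.90 by its representative and -1.61, -1.07 and 0.23 by its other probe sets. HEY2 had 1.17, a value that rests on the floor in siYT cells. Among all genes 5.39% were higher and 9.56% lower by this rule. HES1 had 0.70 by its representative and -0.77 by its second probe set, and HEY1 had -0.04 and -0.28. JAG1 had 0.50 by its representative and up to 1.26 by its others.

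The rest of the pathway was read through a wider list of 66 genes, of which 62 had a single-gene probe set and 59 were above the floor on at least 1 array. After knockdown, 5 were at least 2-fold higher and 3 were lower when no 8Br-cAMP was given, with a median of 0.18. In its presence 7 were higher and 8 were lower, with a median of 0.00. With 8Br-cAMP, 3 were higher and 6 lower after knockdown, and 5 were higher and 1 lower with control siRNA, with medians of -0.11 in each. Set against the shares of all genes given above (from 4.34% to 9.88%), most of these counts out of 59 lie near the background and nothing is read from them about the list. The plot of knockdown differences for this list shows that most genes stayed within 2-fold on both axes.

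Of 8 measured genes of the proteases that cut Notch and their subunits, FURIN was at least 2-fold higher after knockdown in both conditions. FURIN, which cleaves the receptor precursor, read 1132 in siYT+8Br-cAMP cells and 746 in siYT cells, against 367 in siNC+8Br-cAMP cells and 284 in siNC cells, or 2.63-fold and 3.08-fold higher without and with 8Br-cAMP. NCSTN, a subunit of gamma-secretase, was 1.47-fold and 2.57-fold higher after knockdown. ADAM10, the sheddase that cuts after ligand binding, differed by -0.15 and 0.31. Of 12 genes of endocytosis and turnover, FBXW7, the ubiquitin ligase subunit that marks the intracellular domain for destruction, was 2.93-fold and 2.53-fold higher. It read 693 in siYT+8Br-cAMP cells and 1004 in siYT cells, against 274 in siNC+8Br-cAMP cells and 342 in siNC cells. NUMBL, an adaptor related to the Notch antagonist NUMB, and the deltex ligase DTX2 were 2.45-fold and 2.28-fold lower after knockdown with 8Br-cAMP, against log2 differences of -0.45 and -0.53 without it.

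Of the 6 sugar transferases that modify the receptors, POGLUT1 (which adds glucose) was 2.45-fold higher and EOGT (which adds N-acetylglucosamine) 2.62-fold lower after knockdown with 8Br-cAMP, and without it they differed by 0.80 and -0.49 (log2). With 8Br-cAMP after knockdown, POGLUT1 was 2.25-fold higher, EOGT 2.45-fold lower and LFNG, the fringe enzyme that alters ligand choice, 3.59-fold lower. With control siRNA the 8Br-cAMP differences of these genes were 0.68, -0.39 and -0.48 (log2). NOTCH4, the fourth receptor, read 119 in siYT, 195 in siNC+8Br-cAMP and 76.2 in siNC cells and was below the floor in siYT+8Br-cAMP cells. It was therefore 2.56-fold higher with 8Br-cAMP under control siRNA and at least 3.12-fold lower after knockdown with 8Br-cAMP, against a difference of 0.64 (log2) after knockdown without it.

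In the nuclear complex, RBPJ itself read 3778 in siYT+8Br-cAMP cells and 3478 in siYT cells, against 2590 in siNC+8Br-cAMP cells and 3034 in siNC cells, and no difference reached 2-fold. The acetyltransferase genes KAT2B and CREBBP were lowest on the siYT+8Br-cAMP array. KAT2B read 129 in siYT+8Br-cAMP cells and 1211 in siYT cells, against 547 in siNC+8Br-cAMP cells and 903 in siNC cells. CREBBP read 94.5 in siYT+8Br-cAMP cells and 706 in siYT cells, against 137 in siNC+8Br-cAMP cells and 350 in siNC cells. That array also had the highest 3′ to 5′ ratio, whose part in these values was not tested. CREBBP was 2.54-fold lower with 8Br-cAMP under control siRNA and 2.02-fold higher after knockdown without 8Br-cAMP. The ACTB ratio was 1.14 on the siNC+8Br-cAMP array and 1.07 on the siNC array. KAT2A, another acetyltransferase, was 2.01-fold higher with 8Br-cAMP after knockdown and differed by 0.42 (log2) under control siRNA, and the co-activator MAML3 was just past 2-fold higher with it under control siRNA. Of 9 measured corepressors, HDAC1, TLE2 and TLE3 were 2.25-fold, 2.07-fold and 2.68-fold higher with 8Br-cAMP under control siRNA, and TLE2 was at least 4.13-fold lower after knockdown with 8Br-cAMP and differed by -0.71 (log2) without it.

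Among 11 other HES genes and Notch targets, MYC, a growth regulator that Notch induces in T cells, was 2.98-fold lower after knockdown without and 2.86-fold lower with 8Br-cAMP. It read 2508 in siYT+8Br-cAMP cells and 2738 in siYT cells, against 7167 in siNC+8Br-cAMP cells and 8149 in siNC cells. BHLHE40, a helix-loop-helix repressor, was 3.49-fold and 2.45-fold higher after knockdown without and with 8Br-cAMP. CCND1, cyclin D1, was 2.22-fold higher after knockdown without 8Br-cAMP and 3.13-fold lower with 8Br-cAMP after knockdown. Its matching differences were -0.19 (log2) in siYT+8Br-cAMP minus siNC+8Br-cAMP and -0.31 in siNC+8Br-cAMP minus siNC. NRARP, a feedback inhibitor that Notch induces, was level on 3 arrays (169 in siYT, 167 in siNC+8Br-cAMP and 151 in siNC cells) and below the floor in siYT+8Br-cAMP cells, at least 2.67-fold lower after knockdown with 8Br-cAMP, against a difference of 0.16 (log2) without it. HES6, which opposes HES1, was at least 2.19-fold lower after knockdown without 8Br-cAMP and read 137 in siNC cells. HES5 was above the floor in siYT+8Br-cAMP cells (135) and, barely, in siNC cells (64.0), and was at least 2.15-fold higher after knockdown with 8Br-cAMP, while its difference without 8Br-cAMP lay between a value at the floor and one next to it. HES7 and BHLHE41, named after their values were seen, were 2.01-fold lower after knockdown without and 2.13-fold higher after knockdown with 8Br-cAMP. In the other knockdown comparison they differed by 0.32 and 0.89 (log2).

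**Figure D4:**
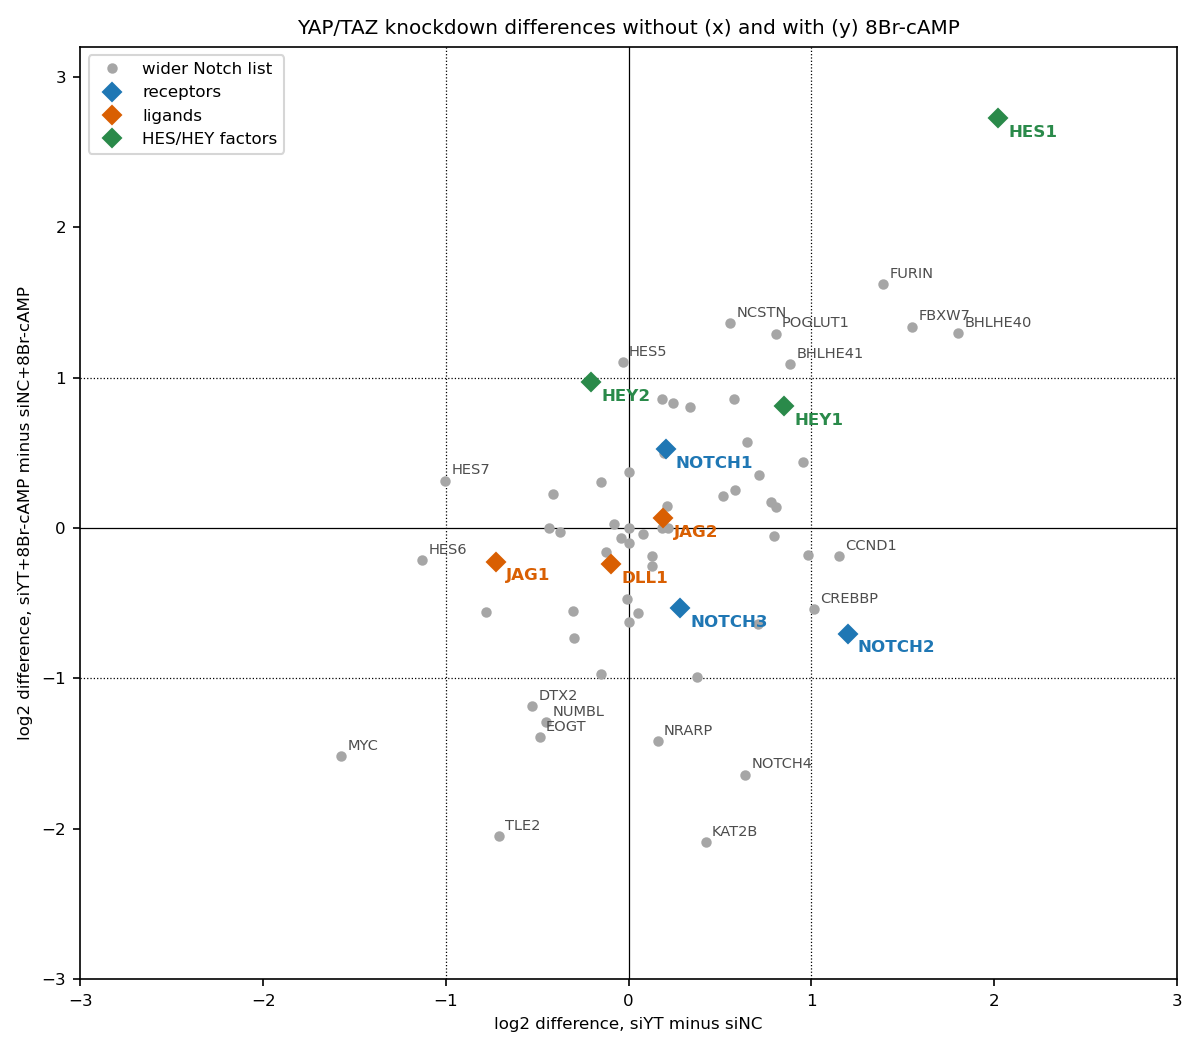
Log2 differences after knockdown without (x axis, siYT minus siNC) and with 8Br-cAMP (y axis, siYT+8Br-cAMP minus siNC+8Br-cAMP) for the 59 measured genes of the wider list (grey, named past 2-fold on either axis) and the 9 measured members (diamonds); dotted lines mark 2-fold. HES1 at 2.02 and 2.73 lies apart at the upper right, FURIN, FBXW7 and BHLHE40 are past 2-fold on both axes, and MYC is past it downward on both.

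The genes with profiles most like those of the 3 widest-ranging members were found by the distance between the 4 centred log2 values, over 10794 genes above the floor on all arrays. For HES1 the nearest were NDRG1 (distance 0.43), ANG (0.45) and SHOX2 (0.53), and 2 genes lay within 0.5. NDRG1 read 24835 in siYT+8Br-cAMP cells, 14104 in siYT cells, 5161 in siNC+8Br-cAMP cells and 3419 in siNC cells. This is the order of arrays of the representative HES1 probe set. The second HES1 probe set (203395_s_at) was not compared and has another order. It read 607 in siYT, 231 in siYT+8Br-cAMP, 131 in siNC and 84.9 in siNC+8Br-cAMP cells. For JAG1 they were ZNF121 (0.10), LINC00839 (0.14) and SRF (0.14), among 307 genes within 0.5, and for NOTCH2 they were ADGRL1, CTBS and ZNF687 (0.07 to 0.09), among 165. With 4 arrays such profiles are common, as the counts for JAG1 and NOTCH2 show.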

How the data were processed

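Total RNA of KGN cells was labelled as biotinylated cRNA by 3′ in vitro transcription, per the labels' protocols. The deposited values are probe set intensities. The submitters' processing notes name RMA in Affymetrix Expression Console (version not given in the sources used here), but the deposited intensity values are linear, go down to 0.081 and have the same 2% trimmed mean (about 499.9) on each array, unlike RMA output, so their background correction and summary are unknown. The platform annotation gave a single symbol to 41097 of the 54675 probe sets, several to 1801 and none here to 11777. Gene identifiers matched 41043 and changed 0 symbols. Values below the median of all values (62.6) were set to it, log2 was taken, the probe set of highest mean log2 value stood for each gene, and 14427 genes that cleared the floor on 1 array or more were compared. Genes were called at 2-fold. A fold against a value at the floor is a lower bound. The number of arrays, 1 a group, limits the precision.

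The design file assigns no test. An additive fit of both factors (limma 3.58.1, R 4.3.3), run as an alternative, has 1 residual degree of freedom and takes the difference of differences as error. It was checked on simulated data that held additive effects alone, so the check covers effect sizes and not p-values. Other alternatives were other floors, cyclic loess and quantile normalization, other choices of probe set and a 1.5-fold rule. The members, the wider list and the rules were chosen with earlier results of these data known. Named were all members, YAP1 and WWTR1, wider-list genes at 2-fold in any comparison (up to 6 a role) and the 3 nearest profiles of 3 members. ADAM10, RBPJ, HES7, BHLHE41 and the markers given with values were named outside this rule, after their values were seen. Some genes of the wider list are not reported here, and DLK1, DTX1 and HES2 were at the floor on all arrays.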

Additional observations from a re-analysis of the deposited data

Results flagged for a closer look

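By 2 of its 4 probe sets, NOTCH2 had knockdown differences of opposite sign without and with 8Br-cAMP, each larger than the SD between probe sets. Probe set 202443_x_at had 1.20 without and -0.70 with 8Br-cAMP, and its 8Br-cAMP differences were likewise opposite, at -1.27 after knockdown and 0.63 with control siRNA. Probe set 210756_s_at had 0.81 without and -0.80 with 8Br-cAMP. With 1 array a group the opposition was not tested. Probe set 212377_s_at did not show it, with 0.21 and 0.44.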

How the results depend on the processing

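Of the 4 comparisons, counts of members at 2-fold moved with the floor and the choice of probe set. For knockdown without 8Br-cAMP, 2 higher became 1 with a floor at the 75th percentile of all values (388.7, NOTCH2) and with the mean of all probe sets (HES1). It also became 1 when probe sets with the suffixes for shared transcripts were left out (HEY1), and 3 at 1.5-fold (NOTCH2, HES1 and HEY1). In the same comparison 0 lower became 2 with no floor (DLL1 and HEY2, low values) and 1 at 1.5-fold (JAG1). For knockdown with 8Br-cAMP, 1 higher became 2 with no floor (HES1 and HEYL) and with quantile normalization (HES1 and HEY2), 0 without suffix-shared probe sets and 3 at 1.5-fold, and 0 lower became 1 at 1.5-fold. For 8Br-cAMP after knockdown, 1 higher became 3 with no floor, 2 with cyclic loess, with quantile normalization and at 1.5-fold, and 0 with the mean of all or without suffix-shared probe sets, while 1 lower became 0 without suffix-shared probe sets and 3 at 1.5-fold. For 8Br-cAMP with control siRNA, 1 higher became 0 with the floor at 388.7, with the mean of all or without suffix-shared probe sets, and 3 at 1.5-fold, while 1 lower became 2 with no floor and 0 with the mean of all or without suffix-shared probe sets. Without the suffix-shared probe sets 4 members remain above the floor on any array, and JAG1, NOTCH2, NOTCH3, DLL1 and HEYL have no probe set left. HES1 is then read by a probe set at or near the floor, and its knockdown difference without 8Br-cAMP is -0.0386. With the mean of all its probe sets, 1 of them near or below the floor, the HES1 difference for 8Br-cAMP after knockdown is -0.016, and its knockdown differences are 1.40 and 1.39. With the floor at 388.7, which lies above both control readings of HES1, they are 0.77 and 2.11. Under cyclic loess and under quantile normalization all 36 member differences moved from the reported value by less than the SD between probe sets. In the additive limma fit over 14427 genes, HES1 was the 1 member of 9 called for knockdown (log2 2.37, SE 0.30, adjusted p = 0.0379), with 95 genes higher and 162 lower, and JAG1 had an adjusted p of 0.212 for 8Br-cAMP (-0.96). No member was called for 8Br-cAMP by limma, while JAG1 and HES1 had unadjusted p-values of 0.0149 and 0.0168. No paired analysis was possible because each group has 1 array, and no array could be left out of a comparison for the same reason. Signal near the floor limits DLL1, HEY2, HEYL and JAG2.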
